A study of Mus musculus with 16 samples.

Results

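The melanosome is the organelle in which pigment cells make and store melanin. Its 9 genes described here were chosen by name, for what their proteins do, as the rows of the deposited table with the symbols Tyr, Tyrp1, Dct, Pmel, Mlana, Slc45a2, Slc24a5, Gpr143 and Oca2. Each symbol had 1 row among the 23235 rows of the table. The table holds RNA levels of mouse embryonic skin at embryonic day 14.5, separated by fluorescence-activated cell sorting into 8 cell fractions with 2 libraries each, 16 libraries in all. The labels name the fractions Mc, Pc, Epi, DC, DCSch, Sch, Fb and Neg without spelling them out. General knowledge of the study gives them as melanocyte, placode, epidermis, dermal condensate, dermal condensate with Schwann cells, Schwann cell, fibroblast and the negative fraction. The labels give no genotype, strain, treatment or sorting marker, and do not say whether the 2 libraries of a fraction came from separate embryos. P-values therefore measure the spread between these libraries, which may be technical.

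Melanin is made from the amino acid tyrosine in a chain of reactions inside the melanosome. Tyrosinase, the product of Tyr, starts the chain, and the related enzymes encoded by Dct and Tyrp1 act on later intermediates, towards the brown-black pigment eumelanin. Pmel protein forms the fibrils on which melanin is laid down, and Mlana protein assists its processing. The transporters and channels encoded by Slc45a2, Slc24a5 and Oca2 set the ion balance and acidity of the organelle, and Gpr143 encodes a receptor of the melanosome membrane that takes part in its size and number. Loss of several of these genes causes albinism. Melanocytes come from the neural crest, partly through precursors that travel along nerves and also give Schwann cells, and in mouse embryos they enter the epidermis and later the hair follicles. Many of these genes are known targets of the transcription factor Mitf, which binds the letters CATGTG and, at pigment genes, a longer version called the M-box.

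The sequences before the gene starts are shown first, because these letters recur in them. RefSeq windows of 300 bases (build GRCm38.p6, 250 bases before the annotated start to 50 after it) were found for 5 of the 9 genes, namely Tyr, Tyrp1, Dct, Slc24a5 and Oca2. TCATGTG, searched on both strands, was in 4 of the 5 windows and in 3.77% of all 32851 mouse windows. The 4 are printed below 5′ to 3′ on the strand of the gene, in lower case, with TCATGTG, or CACATGA where it lies on the opposite strand, in capitals.
Tyr, minus strand, chr7:87493463-87493762: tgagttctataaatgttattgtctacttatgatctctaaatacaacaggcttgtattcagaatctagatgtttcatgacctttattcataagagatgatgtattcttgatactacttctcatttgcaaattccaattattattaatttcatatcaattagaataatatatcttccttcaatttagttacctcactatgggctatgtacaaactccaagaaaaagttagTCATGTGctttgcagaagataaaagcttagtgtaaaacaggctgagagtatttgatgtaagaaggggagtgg
Tyrp1, plus strand, chr4:80833963-80834262: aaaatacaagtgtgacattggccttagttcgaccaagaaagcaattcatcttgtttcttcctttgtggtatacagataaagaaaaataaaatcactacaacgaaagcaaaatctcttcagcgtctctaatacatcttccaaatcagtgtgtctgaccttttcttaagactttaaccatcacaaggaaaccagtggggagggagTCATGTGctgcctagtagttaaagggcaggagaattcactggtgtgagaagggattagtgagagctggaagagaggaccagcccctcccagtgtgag
Dct, minus strand, chr14:118052197-118052496: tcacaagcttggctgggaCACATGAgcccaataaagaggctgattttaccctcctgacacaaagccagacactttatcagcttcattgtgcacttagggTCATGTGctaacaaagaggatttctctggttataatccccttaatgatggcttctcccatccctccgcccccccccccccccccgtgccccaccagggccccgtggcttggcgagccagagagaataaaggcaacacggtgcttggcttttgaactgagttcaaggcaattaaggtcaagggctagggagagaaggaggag
Slc24a5, plus strand, chr2:125067877-125068176: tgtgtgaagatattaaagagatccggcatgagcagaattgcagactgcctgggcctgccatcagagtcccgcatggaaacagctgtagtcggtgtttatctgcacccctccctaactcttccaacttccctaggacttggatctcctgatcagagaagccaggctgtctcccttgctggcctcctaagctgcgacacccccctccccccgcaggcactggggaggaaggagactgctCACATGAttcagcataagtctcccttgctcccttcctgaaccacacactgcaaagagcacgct

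The 3 enzyme genes shared more than the 7 letters. The run GTCATGTGCT stood in the windows of Tyr, Tyrp1 and Dct and in 0.186% of all windows, and AGTCATGTGCT stood in those of Tyr and Tyrp1 and in 0.0213%. Both runs were read from these same windows, by extending TCATGTG for as long as the letters agreed. Their presence there was therefore fixed in advance, and the shares of all windows are a description only. The runs contain TCATGTG, which contains CATGTG. The TCATGTG of Tyr began 22 bases before the annotated start, that of Tyrp1 47 bases before it, and those of Dct 151 and, on the opposite strand, 232 bases before it. In Slc24a5 it lay on the opposite strand, 13 bases before the start. The Oca2 window held the shorter CATGTG, on the opposite strand, which 14.2% of all windows hold. CACGTG, another E-box, was in none of the 5 windows and in 7.15% of all. A match describes the letters only and shows no binding.

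All 9 genes were highest in Mc, in both libraries, and Epi was second on average for all 9. Levels are FPKM, fragments scaled to transcript length and to library size, so genes can be compared per length. Dct led the 9 in Mc with 3522 and 2407 FPKM in the 2 libraries, and ranked 10 and 28 among the rows of the table. Pmel followed with 1539 and 1154 FPKM, and Mlana with 819 and 674. The structural genes thus stood between Dct and the other enzyme genes. Tyr measured 259 and 348 FPKM in Mc, and Tyrp1 215 and 134. The enzyme genes did not move together between the 2 Mc libraries, since Tyr was higher in replicate 2 and both Dct and Tyrp1 in replicate 1.

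Among the transporters, Slc24a5, a potassium-dependent sodium and calcium exchanger, had 236 and 234 FPKM in Mc. Slc45a2, a sugar-proton transporter family member, had 161 and 162 FPKM, within the span of the Tyrp1 libraries. Both varied less between replicates than the enzyme genes. Gpr143 was lower, at 36.0 and 27.6 FPKM. Oca2, which encodes a melanosome membrane channel protein, was lowest in Mc, at 14.8 and 7.10 FPKM, replicate 2 being at 0.481 times replicate 1. Together the 9 genes took 1.40% and 0.998% of the summed FPKM of the Mc libraries, against 0.0285% and 0.0443% in Epi and 0.00139% to 0.00903% in the other 12.

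**Figure D1:**
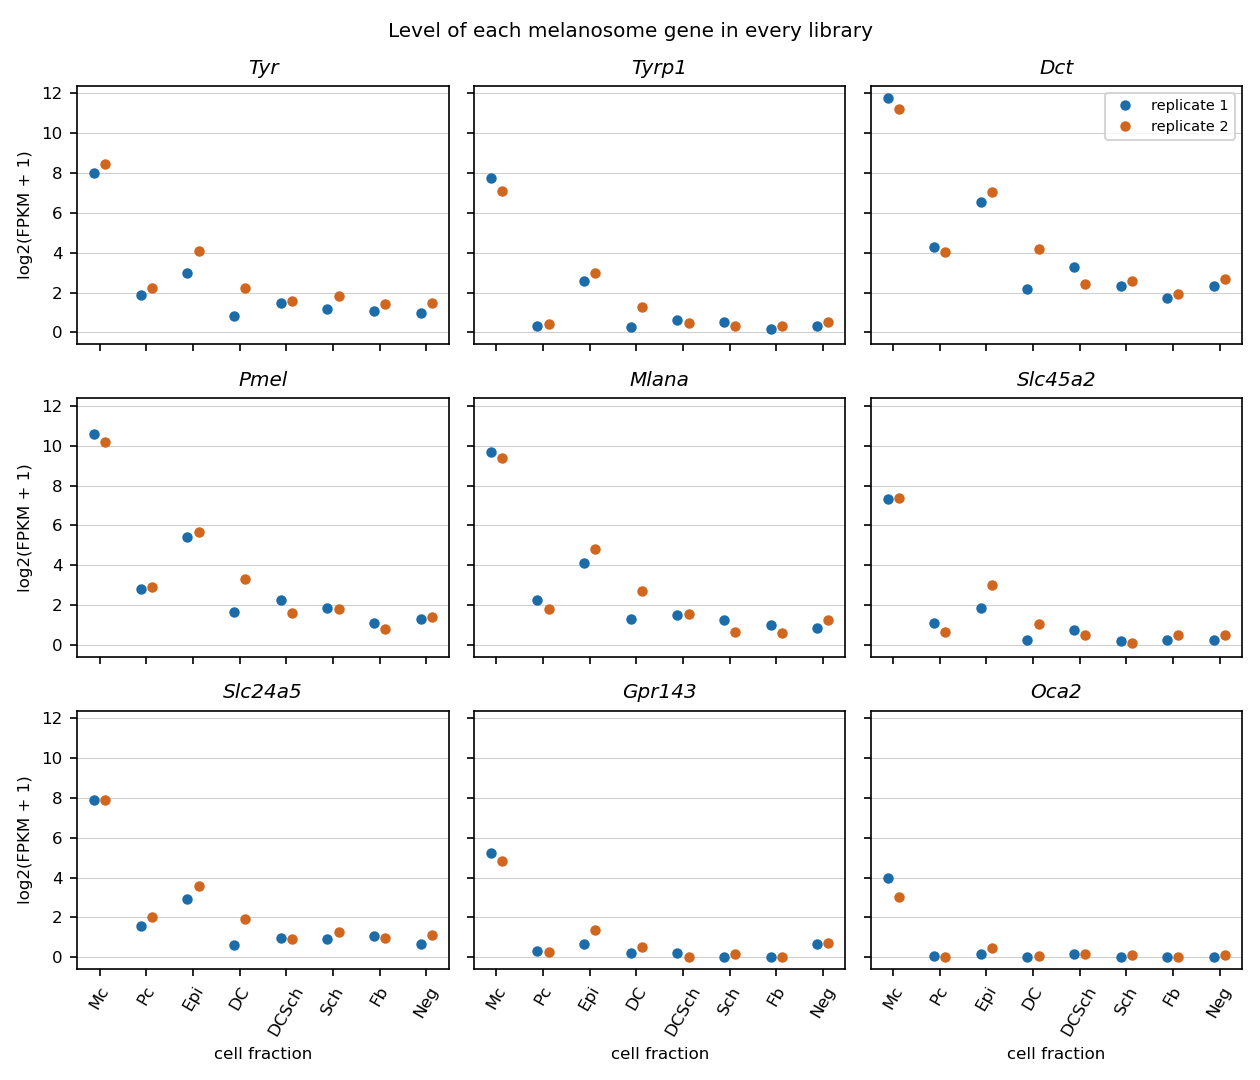
Level of each of the 9 genes as log2(FPKM + 1) in the 8 cell fractions, 1 panel per gene, with 1 point per library (blue, replicate 1; orange, replicate 2). Both Mc points lie above all others in every panel, both Epi points lie above both Pc points, and DC replicate 2 lies above DC replicate 1.

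Some positions in the file bear on these values, given 1-based on mm10, with the starts in the file raised by 1. Pmel (chromosome 10, 128706258 to 128744056, plus strand) is drawn over the same interval as Dgka, a lipid kinase gene on the opposite strand that GENCODE M21 places at 128720134 to 128744855. Slc24a5 (chromosome 2, 125068127 to 125123660, plus strand) shares its interval with Myef2, on the opposite strand. Whether the counting used strand is not stated, so reads where these genes overlap may be split wrongly. Dgka measured 4.21 ± 1.44 FPKM in Mc, against 34.2 ± 2.11 in Epi and 27.1 ± 3.55 in Pc. Myef2 lay between 30.4 and 86.4 FPKM in all 16 libraries and, like Slc24a5, was highest in Mc. It measured 84.7 ± 2.41 FPKM there, against means of 33.4 (Epi) to 63.4 (Sch) in the other fractions. The part of shared reads in these values was not tested. No other row overlapped a member. Cdk2, named here after its values were seen, is a cell cycle kinase gene whose row ends just before that of Pmel (128697939 to 128705051, minus strand). It measured 194 ± 38.9 FPKM in Mc, against 14.8 to 34.8 on average in the other fractions. GENCODE starts Pmel at 128704195, inside the Cdk2 row, and the part of Pmel reads in the Cdk2 value was not tested.

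The other rows of the table are Tyr (chromosome 7, 87427405 to 87493411, minus strand), Tyrp1 (chromosome 4, 80834230 to 80851718, plus strand) and Dct (chromosome 14, 118012790 to 118052246, minus strand). Mlana lies on chromosome 19 (29697941 to 29708306), Slc45a2 on chromosome 15 (11000721 to 11029233), Gpr143 on chromosome X (152781921 to 152808646) and Oca2 on chromosome 7 (56239771 to 56536517), all on the plus strand. All 9 are protein-coding.

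The comparison of Mc with each other fraction asks how far the melanosome genes mark the melanocyte fraction. All 9 genes were called higher in Mc in each of the 7 comparisons. Here and below a gene is called at a limma adjusted p (Benjamini-Hochberg, over all 14171 rows tested) under 0.05 and a log2 difference of at least 1, on the log2(FPKM + 1) scale, which understates the difference of low genes. Of all rows tested, 4.53% were called higher in Mc than in Sch, 9.03% than in Epi, 9.07% than in Pc, 10.9% than in DC, 7.59% than in Fb, 6.05% than in DCSch and 5.72% than in Neg. The 7 comparisons share the Mc libraries, and the genes were known melanocyte genes before, so these calls serve as a check of the Mc label.

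Against Sch, the other crest-derived fraction, the log2 differences ran from 3.42 for Oca2 (SE 0.24, limma adjusted p = 1.37e-06) to 9.06 for Dct (SE 0.52, limma adjusted p = 3.00e-07), with a median of 7.01 over the 9 genes and -0.01 over all rows. Tyr differed by 6.72 (SE 0.46, limma adjusted p = 1.06e-06). Against Epi the differences were the smallest of the 7 comparisons for each gene, from 3.20 for Oca2 (SE 0.24, limma adjusted p = 3.02e-06) to 5.07 for Mlana (SE 0.42, limma adjusted p = 5.75e-06), with a median of 4.69. Even so, the lower Mc library exceeded the highest library outside Mc, Epi replicate 2 for all 9 genes, by 16.0 times (Tyr) to 24.7 times (Mlana). Oca2 and Gpr143 reached the filter of at least 1 FPKM in at least 2 libraries only because of Mc. Outside Mc, Oca2 reached 1 FPKM in 0 libraries and Gpr143 in 1, from Epi. Their calls as higher in Mc, counted among the 9, are therefore a description only.

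Outside Mc the genes were low but seldom listed at 0. Expressed as a percentage of its own Mc mean, each gene stood in Epi at 2.18% (Oca2) to 3.81% (Tyr), with a median of 3.35%. In Pc the range was 0.132% (Oca2) to 1.07% (Slc24a5), with a median of 0.528%, and in DC 0.256% (Oca2) to 0.864% (Gpr143), with a median of 0.468%. In sorted bulk samples, fewer cells of a type and less RNA per cell cannot be told apart. DCSch, Sch and Neg had medians of 0.257%, 0.188% and 0.205%, and Fb had the lowest, 0.0997%. Relative to its size, the spread of the percentages over the 9 genes was smallest in Epi.

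**Figure D2:**
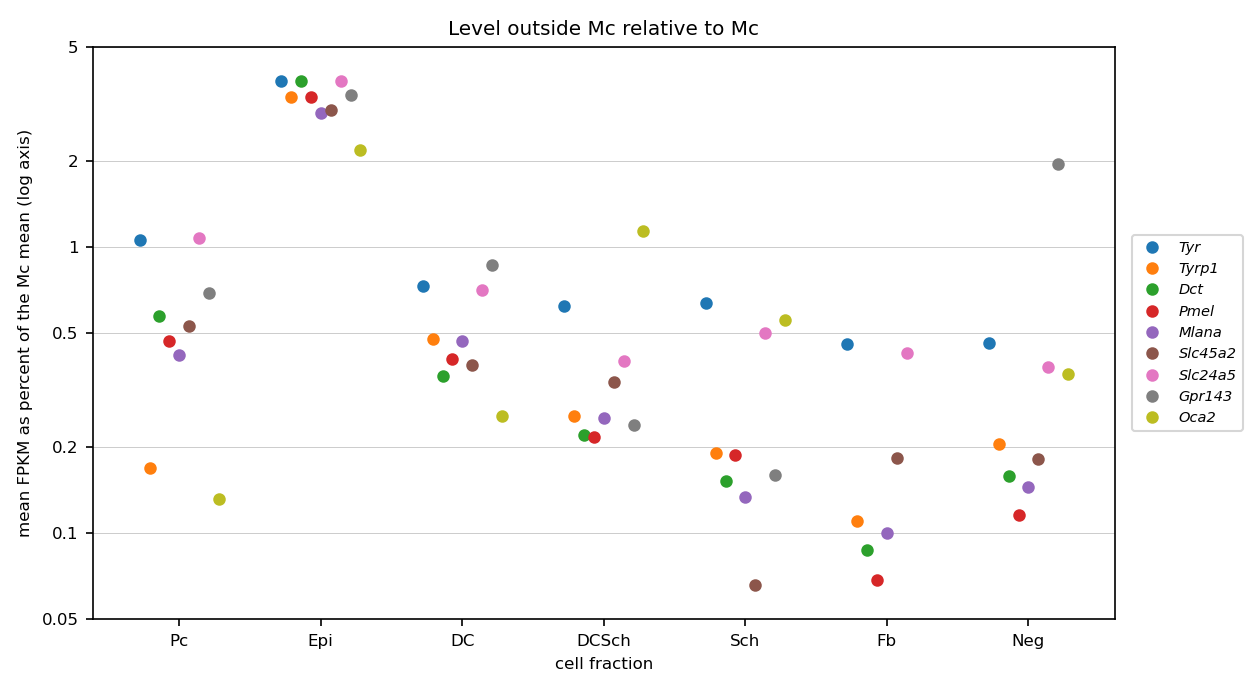
Mean FPKM of each gene in 7 fractions as a percentage of its mean in Mc, on a log axis, with 1 coloured point per gene. Epi holds the highest and tightest group, from 2.18% to 3.81%, and Gpr143 and Oca2 have no point in Fb because both Fb libraries list them at 0.

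Dct gave the clearest trace, being the most abundant. It measured 92.8 and 132 FPKM in Epi, 18.4 and 15.6 in Pc, 3.54 and 17.4 in DC, 8.66 and 4.42 in DCSch, 4.01 and 4.98 in Sch, 2.30 and 2.86 in Fb, and 4.01 and 5.38 in Neg. Epi stood apart from all of these, and so did Fb at the low end. Between them, in the order Pc, DC, DCSch, Neg and Sch, each fraction overlapped the next. Pmel had 41.4 and 49.0 FPKM in Epi and 6.03 and 6.60 in Pc, against 1.12 and 0.717 in Fb. Mlana had 16.5 and 27.2 FPKM in Epi and 3.80 and 2.48 in Pc, against 0.982 and 0.506 in Fb. The order Epi, Pc, Fb was therefore the same for these 3 genes, with no overlap between the libraries of these fractions.

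Relative to its Mc mean, Tyr kept a higher floor than the other enzyme genes, although in FPKM Dct was higher than Tyr in Fb and Neg. Its level was 1.09 and 1.70 FPKM in Fb and 0.984 and 1.82 in Neg, which is 0.458% and 0.461% of the Mc mean, where Dct stood at 0.0871% and 0.158% and Tyrp1 at 0.110% and 0.205%. Pc, DC, Sch, DCSch, Neg and Fb each overlapped their neighbour in the order of Tyr levels. Slc24a5, which shares its interval with Myef2, had a similar floor, with 1.07 and 0.935 FPKM in Fb, or 0.426% of Mc. Slc45a2 fell to its lowest level in Sch, 0.160 and 0.0526 FPKM.

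Gpr143 and Oca2 were close to the lower limit of the table outside Mc. Gpr143 was listed at 0 in both Fb libraries, 1 DCSch library and 1 Sch library, and had 0.599 and 1.56 FPKM in Epi. In Neg it had 0.607 and 0.639 FPKM, overlapping Epi, and at 1.96% of Mc it was the only member above 0.461% there. Neg also held mast cell genes, whose summed FPKM over 5 markers was 1016 and 1214 in Neg, and Mitf at 5.01 and 4.50 FPKM. Their part in the Gpr143 value was not tested. Oca2 outside Mc reached at most 0.366 FPKM, in Epi replicate 2, and was listed at 0 in both Fb libraries, 1 Pc library and 1 Neg library. In Epi replicate 1 it had 0.110 FPKM, below both DCSch libraries, at 0.125 and 0.123.

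The comparison of Pc with Epi asks whether the trace differs between the placode and the epidermis around it. In Pc 4 of the 9 genes were called lower and none higher, where 1.37% of all rows were called lower. The 4 were Tyrp1, Dct, Pmel and Mlana. Tyrp1 measured 0.265 and 0.326 FPKM in Pc, against 4.88 and 6.78 in Epi, a log2 difference of -2.39 (SE 0.32, limma adjusted p = 0.00268). Pmel differed by -2.65 (SE 0.42, limma adjusted p = 0.00694), Mlana by -2.44 (SE 0.42, limma adjusted p = 0.0138) and Dct by -2.64 (SE 0.52, limma adjusted p = 0.0239). All 9 genes were lower in Pc without overlap of the libraries, but how many of all rows separate this way was not counted. Their Pc means were 0.0506 (Tyrp1) to 0.283 (Slc24a5) times the Epi means.

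The 5 genes not called were Slc45a2 (log2 difference -1.57, limma adjusted p = 0.0531), Slc24a5 (-1.47, limma adjusted p = 0.103), Tyr (-1.49, limma adjusted p = 0.205), Gpr143 (-0.73, limma adjusted p = 0.201) and Oca2 (-0.28, limma adjusted p = 1). Oca2, below 1 FPKM in every Pc and Epi library, could not differ by 1 on this scale. The main fit did not pair same-numbered libraries. With a replicate block, which does, 7 of the 9 were called lower, where 309 of the 14171 rows were. It added Tyr (limma adjusted p = 0.00599), Slc24a5 (limma adjusted p = 0.0116) and Slc45a2 (limma adjusted p = 0.0152). Only Tyrp1 stayed called without Epi replicate 2 and without Pc replicate 2. Dct lost its call when any 1 of the 4 libraries was left out (limma adjusted p = 0.0932 to 0.226), with no filter (limma adjusted p = 0.0940) and with a pseudocount of 0.1 (limma adjusted p = 0.0822). The 10 keratinocyte markers went both ways, with 5 higher and 5 lower on average in Pc. Krt1, at 191 and 78.0 FPKM in Pc against 855 and 659 in Epi, and Krt10, at 223 and 76.7 against 859 and 594, both keratins of the differentiating layers, were at 0.178 and 0.206 times their Epi means in Pc. Krt5 and Krt14, keratins of the basal layer, were at 1.13 and 1.23 times. The part of these differences in the melanosome values was not tested.

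**Figure D3:**
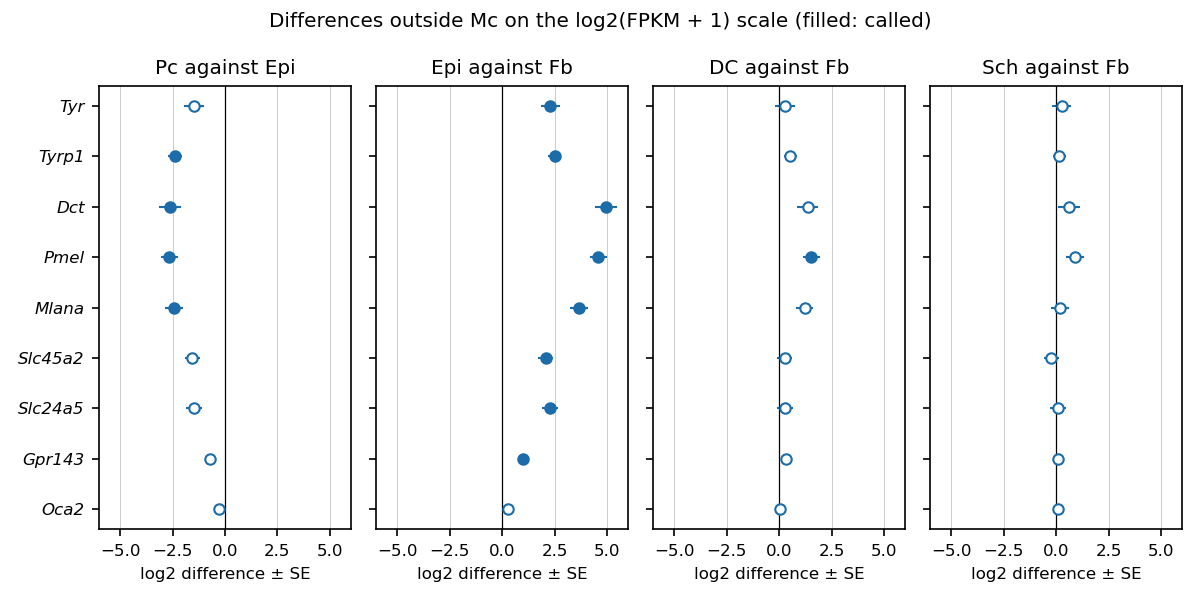
Log2 difference of each gene on the log2(FPKM + 1) scale for Pc against Epi, Epi against Fb, DC against Fb and Sch against Fb, first-named fraction minus second, with bars for ± 1 SE and filled points for called genes. All 9 points are below 0 in Pc against Epi, and in Epi against Fb all are above 0 and 8 are filled.

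Epi was compared with Fb to place its trace against a background. For these same genes Epi was on average the highest fraction outside Mc and Fb had the lowest median. The calls therefore describe the size of that gap and are no separate support for it. In Epi 8 of the 9 genes were called higher than in Fb, where 10.5% of all rows were. No libraries overlapped for the 9 genes, and the share of all rows without overlap was not counted. Dct differed most, by 4.97 (SE 0.52, limma adjusted p = 1.32e-05), then Pmel by 4.59 (SE 0.42, limma adjusted p = 4.98e-06) and Mlana by 3.69 (SE 0.42, limma adjusted p = 3.03e-05). Gpr143 differed by 1.02 (SE 0.23, limma adjusted p = 0.00412). Its call was lost without Epi replicate 2 (limma adjusted p = 0.0513) and after scaling every library to an equal total, where the difference was 0.93. Oca2 was not called, with 0.110 and 0.366 FPKM in Epi, and is listed at 0 in Fb (limma adjusted p = 0.396). Values this low cannot differ by 1 on the log2(FPKM + 1) scale, so Oca2 could not be called here. With a pseudocount of 0.1 all 9 genes were called higher in Epi, where 1697 of the 14171 rows were. Epi replicate 2 was above replicate 1 for all 9 genes, by 1.18 to 3.33 times.

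DC was compared with Fb, its dermal counterpart. Gpr143 and Oca2, below 1 FPKM in every library of both, could not differ by 1 on this scale. Pmel was the 1 gene of 9 called higher in DC, where 6.13% of all rows were, and this call did not hold in every setting. Pmel measured 2.14 and 8.77 FPKM in DC, against 1.12 and 0.717 in Fb, a log2 difference of 1.54 (SE 0.42, limma adjusted p = 0.0213). Without DC replicate 2 the largest log2 difference of the 9 was that of Pmel, 0.72, under the difference of 1 needed for a call. Without DC replicate 1 the largest log2 differences of the 9 were those of Dct (2.37), Pmel (2.36), Mlana (1.92) and Tyrp1 (1.04). Without Fb replicate 2 Pmel differed by 1.38. No gene was called with no filter (limma adjusted p = 0.0663 for Pmel) or with only the 4 libraries compared (limma adjusted p = 0.173 for Pmel). With a replicate block Mlana was called too (limma adjusted p = 0.0358), giving 2, where 971 of the 14171 rows were called higher.

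The 2 DC libraries differed in all 9 genes. Replicate 2 was higher by 1.50 times (Oca2) to 6.71 times (Tyrp1), with a median of 4.56 times. The median level as a percentage of Mc was 0.195% in DC replicate 1 and 0.742% in replicate 2. In replicate 1 Tyr, Slc24a5, Slc45a2 and Tyrp1 were at or below the higher Fb library. Markers of other cells did not all move this way between the DC libraries. Dermal condensate markers summed to 2937 FPKM in replicate 1 and 1543 in replicate 2, Schwann cell markers to 490 and 307, and keratinocyte markers to 61.1 and 54.5. Endothelial markers summed to 9.14 and 21.1, with 5 of 5 genes higher in replicate 2. Of the lists described below, 15 of 24 other melanosome genes and 12 of 16 melanocyte regulators and receptors were higher in DC replicate 2. Gpnmb was higher by 6.18 times and Mitf by 2.92 times, while Hps4 measured 8.62 FPKM in replicate 1 and 3.38 in replicate 2. Their part in the difference, and that of the other markers, was not tested.

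**Figure D4:**
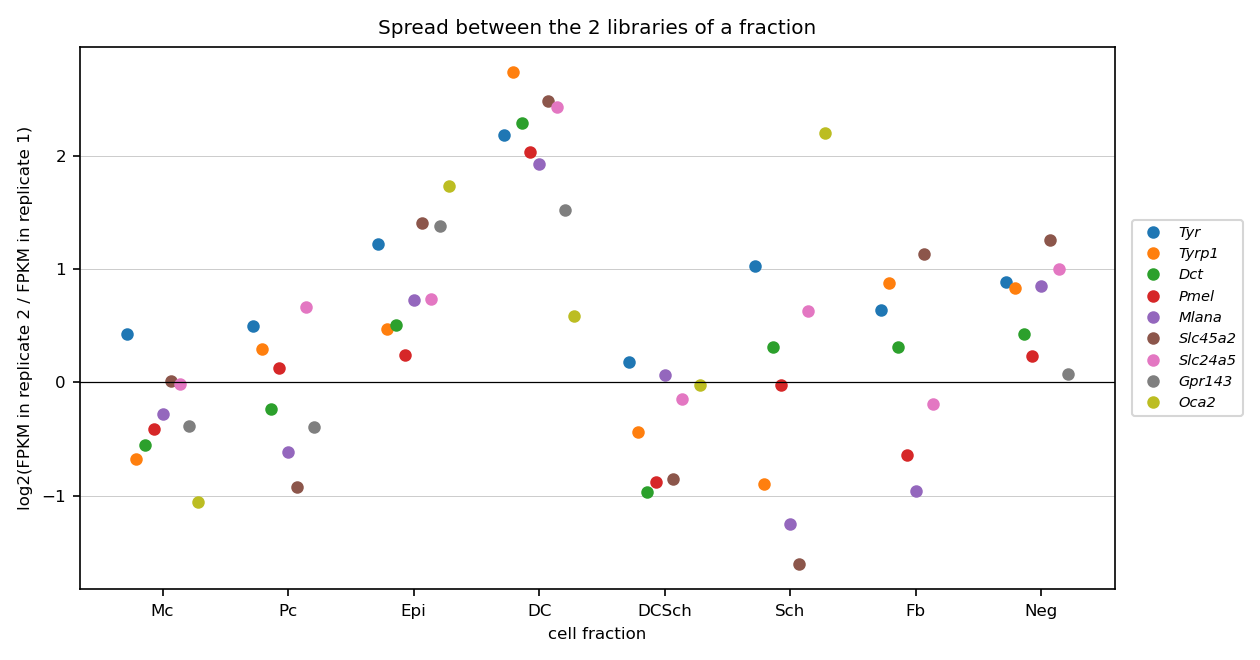
Log2 ratio of FPKM in replicate 2 over replicate 1 for each gene in each fraction, for genes above 0 in both libraries. All points are above 0 in DC and Epi (9 genes each) and in Neg (8 genes, since Oca2 is listed at 0 in Neg replicate 1), with the DC median at 4.56 times, while those of the other fractions lie on both sides of 0.

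Sch was compared with Fb as well, and 8 of the 9 genes were higher on average in Sch. None of the 9 genes was called in Sch against Fb by limma, and none had an unadjusted p under 0.05, where 6.72% of all rows were called higher in Sch. A count of 0 of 9 is not far from that share and does not place Sch at the level of Fb. Pmel had the largest log2 difference, 0.89 (SE 0.42, limma adjusted p = 0.191), with 2.55 and 2.51 FPKM in Sch against 1.12 and 0.717 in Fb. Libraries of the 2 fractions overlapped for 5 of the 9 genes, and the share of all rows with such overlap was not counted. Without overlap, Dct, Pmel and Oca2 were higher in Sch and Slc45a2 was lower. Dct measured 4.01 and 4.98 FPKM in Sch, against 2.30 and 2.86 in Fb. Tyr measured 1.27 and 2.59 FPKM in Sch, against 1.09 and 1.70 in Fb. Slc45a2 alone was lower on average in Sch. Tyrp1, Slc45a2, Gpr143 and Oca2 were below 1 FPKM in every library of both fractions, so they could not differ by 1 on this scale.

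Other genes of the melanosome and of melanocytes were taken as lists, chosen with earlier results of these data known. Of 24 other melanosome genes, 14 were called higher in Mc than in Sch and none lower, where 4.53% of all rows were called higher and 7.31% lower, with a median log2 difference of 1.52, against 7.01 for the 9 genes and -0.01 for all rows. The leading ones were Gpnmb, a melanosome glycoprotein related to Pmel (323 ± 53.4 FPKM in Mc and 0.510 ± 0.0256 in Sch), the calcium channel gene Mcoln3 (188 ± 10.1 and 0.493 ± 0.0100), the cation channel gene Trpm1 (70.2 ± 25.6 and 0.0404 ± 0.0193), Bace2, whose product cleaves Pmel protein (86.2 ± 3.06 and 0.530 ± 0.341), and the transport genes Rab27a and Mlph. Their log2 differences were 7.73, 6.99, 6.05, 5.85, 5.16 and 2.51, with the largest of the 6 limma adjusted p-values at 3.68e-05. The 10 genes not called, most of them sorting genes used by many cell types, had log2 differences of -0.58 to 1.50.

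Of 15 tested genes among the regulators and receptors of melanocytes, 6 were called higher in Mc than in Sch (Mitf, Kit, Mc1r, Met, Tfap2a and Pax3) and 3 lower (Sox5, Erbb3 and Sox9), against the same 4.53% and 7.31% of all rows. Mitf, the regulator named above, measured 115 and 167 FPKM in Mc, against 1.53 and 1.90 in Sch. Sox10 and Ednrb, a transcription factor and a receptor of both crest lineages, showed log2 differences of -0.05 (limma adjusted p = 0.971) and 0.35 (limma adjusted p = 0.653), neither called. Pax3, which acts earlier in the crest, was higher in Mc (64.0 ± 6.65 FPKM) than in Sch (27.7 ± 2.11), but lost the call when any 1 of the 4 libraries was left out, for instance without Mc replicate 2 (limma adjusted p = 0.127). Erbb3 kept it in only 1 of these 4 fits. Sch thus held Sox10 and Ednrb RNA at 110% and 80.7% of the Mc mean, while its Mitf RNA was at 1.21% and the 9 melanosome genes at a median of 0.188%.

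In Epi the regulators and receptors differed among themselves. Of the 15 tested, 11 were called higher in Mc than in Epi and 3 lower, where 9.03% of all rows were higher and 8.9% lower. Of the 15, with a median of 28.8% of Mc, 6 stood under 4% of Mc. This cut lay just above the highest of the 9 melanosome genes, Tyr at 3.81%. The closeness of these 6 to the melanosome genes follows in part from it. Mitf was at 3.22%, Ednrb at 3.20%, Mc1r at 3.49%, Sox10 at 2.46%, Kit at 2.26% and Pax3 at 2.23%, where the 9 genes had a median of 3.35%. The other 9 stood in Epi at 5.21% (Sox5) to 450% (Sox9) of Mc, with Tfap2a at 38.8% and Erbb3 at 40.8%. Of the other melanosome genes, Gpnmb stood at 3.79% and Mcoln3 at 2.86%. Against Epi, 12 of the 24 other melanosome genes were called higher in Mc and 2 lower. The 2 lower ones, named here after their values were seen, were Slc7a11, a cystine transporter gene (1.50 ± 0.471 FPKM in Mc and 21.8 ± 5.26 in Epi), and Rab38, a trafficking gene (40.4 ± 8.37 in Mc and 81.5 ± 10.6 in Epi).

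The 10 rows most like the mean log2(FPKM + 1) profile of the 9 genes over the 16 libraries, by Pearson's r, were Gpnmb (0.998), Mcoln3 (0.994), Glt1d1 (0.992), Syt4 (0.990), Trpm1 (0.989), Tspan10 (0.986), Ptgds (0.986), Bace2 (0.977), Mc1r (0.976) and Map3k15 (0.974). The points share their libraries, with the Mc libraries far above the rest, so the coefficients are a description and carry no p. Each of the 9 genes had an r of 0.942 (Oca2) to 0.995 (Slc24a5) with the mean of the other 8. Glt1d1 and Map3k15 were low even in Mc (4.25 ± 0.137 and 3.24 ± 0.205 FPKM), while Ptgds, a prostaglandin synthase gene, reached 1465 ± 275 FPKM there and 41.6 ± 0.550 in Epi.

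The summed levels of keratinocyte, dermal condensate, fibroblast and Schwann cell markers were highest in Epi, DC, Fb and Sch. Gene by gene this held for 5 of 10 keratinocyte markers (the other 5 were highest in Pc), 8 of 8 dermal condensate markers, 7 of 8 fibroblast markers (Twist2 was highest in DCSch) and 8 of 9 Schwann cell markers (Ngfr was highest in DC). The 6 placode markers summed to 140 and 136 FPKM in Pc, against 71.8 and 64.4 in Epi, but reached 160 and 124 in DC, where Edar, Fgf20 and Shh are listed at 0 in both libraries and Lef1 made up 157 and 121 FPKM. Of these 6, the 5 other than Lef1 were highest in Pc. Mc was not free of other markers. Keratinocyte markers summed to 859 and 528 FPKM in Mc, against 6714 and 5584 in Epi, which is 11.3% of the Epi mean. Cdh1 alone made up 224 and 236 FPKM of this in Mc, near its 252 and 241 in Epi. Krt5, for instance, had 142 and 76.1 FPKM in Mc, against 1355 and 1104 in Epi. Fibroblast markers in Mc were at 4.83% of Fb, Schwann cell markers at 12.5% of Sch, where 2 of the 9, Sox10 and Erbb3, are also melanocyte genes, and dermal condensate markers at 0.512% of DC. Sums of FPKM lay between 439201 and 606437 per library. The file gives no counts, so sequencing depth is unknown. The 5th percentile of values above 0 was 0.0439 to 0.105 FPKM, highest in Sch replicate 2, so that differences among values below about 0.1 FPKM, such as several of Oca2 outside Mc, were not resolved.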

How the data were processed

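The authors deposited 1 table of FPKM values with a column per library. TopHat2 2.0.3, Bowtie2, Cufflinks 2.1.1 and the build mm10 are named by the submitters' processing notes, without role or setting. The labels' protocols give an RNA integrity of 8.8 or more, NuGEN amplification from 6 ng of RNA, and libraries made from 100 ng of the product. The sources used here do not say if libraries were scaled to each other.

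From these values log2(FPKM + 1) was computed. Rows reaching 1 FPKM in 2 or more libraries, 14171 in all, entered a limma 3.58.1 fit (R 4.3.3) with 1 mean per fraction over 16 libraries and a trended, robust estimate of the spread. The fit was tested on simulated data. Figures were drawn with matplotlib 3.10.9. Interval starts in the file are 1 below those of RefSeq for the same build for Dct, Slc45a2, Slc24a5 and Gpr143. All starts were raised by 1, and those of the other members still differ from RefSeq. RefSeq windows came from the table of build GRCm38.p6.

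The 9 genes, the lists and the naming rule were chosen with earlier results of these data known. The rule names all 9 genes, up to 6 called list genes per direction against Sch with at least 10 FPKM, a few fixed regulators, the 10 rows most like the 9, and overlapping rows. Same-numbered libraries deviated together in 28 of 28 pairs of fractions (correlations across genes of 0.148 to 0.656, median 0.491), so the numbers, which come from the sample titles, were read as pairing the libraries. The main fit did not use this pairing, and the replicate block did. Alternatives were another pseudocount (0.1), no filter, other scalings, only the 4 libraries compared, a replicate block, and each replicate left out.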

Additional observations from a re-analysis of the deposited data

How the results depend on the processing

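The 9 genes kept their direction and their call as higher in Mc in all 630 alternative values of the 7 Mc comparisons, with log2 differences of 2.72 to 10.4 and limma adjusted p-values up to 0.000848. Of the 9, Oca2 and Gpr143 passed the filter of the main fit only because of Mc. Outside Mc the counts of the 9 genes depended on the setting, and the cause was not tested. For Pc against Epi, 4 called became 1 with a pseudocount of 0.1, 7 with a replicate block, and 1 to 4 with a replicate left out. All rows called, 216, became 31, 368 and 67 to 184 in these. For DC against Fb, 1 became 2 with a pseudocount of 0.1, with quantile normalization and with a replicate block. It became 0 with no filter and with only the 4 libraries compared. With a replicate left out, the log2 difference of Pmel ranged from 0.72 to 2.36. All rows called, 2172, became 2412 with a pseudocount of 0.1, 2141 with quantile normalization, 2383 with a replicate block and 1916 with no filter. They became 1231 with only the 4 libraries, whose spread has fewer libraries behind it. With a replicate left out, Epi against Fb kept 7 to 8 of the 9, and Sch against Fb 0. For Epi against Fb, 8 called became 9 with a pseudocount of 0.1 and 7 after scaling to an equal total. All rows called higher, 1483, became 1697 and 1129 in these. The replicate block changed no other count of the 9. Where a fraction was left with 1 library, that library was assumed to vary like those of the other fractions.

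Directions turned for genes that were not called. With a replicate left out, the log2 difference of DC against Fb ranged from -0.40 to 0.97 for Tyr, from -0.12 to 0.67 for Slc45a2 and from -0.40 to 0.93 for Slc24a5, each lowest without DC replicate 2. That of Sch against Fb ranged from -0.064 to 0.60 for Tyr and from -0.061 to 0.28 for Slc24a5, both lowest without Sch replicate 2, and from -0.12 (without Sch replicate 1) to 0.48 for Mlana, which was at -0.02 without Fb replicate 2. That of Mc against Sch ranged from -0.56 to 0.46 for Sox10 and from -1.15 to 0.19 for Dgka, both highest without Sch replicate 1, and from -0.39 to 0.16 for Mfsd12, which was at 0.16 without Mc replicate 1 and without Sch replicate 1.

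With a replicate left out, the median percentage of Mc was 2.29% to 4.38% in Epi, 0.483% to 0.621% in Pc, 0.195% to 0.742% in DC, 0.230% to 0.421% in DCSch, 0.155% to 0.219% in Sch, 0.0833% to 0.110% in Fb and 0.135% to 0.267% in Neg. After scaling every library to an equal total it was 0.212% in Sch. Of the 10 rows most like the 9 genes, 8 to 10 recurred with a replicate left out.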
